A study of Mus musculus with 9 samples.

Results

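The genes described here are 10 members of the JAK-STAT cytokine pathway and of the SOCS feedback loop that restrains it, out of 55335 gene identifiers in the deposited table. The choice was by name: the feedback inhibitors Socs1, Socs2, Socs3 and Cish, the kinases Jak1 and Jak2, the transcription factors Stat3, Stat5a and Stat6, and the receptor chain Il4ra. It was made with earlier results of these data known. RNA was sequenced from BV2 cells, an immortalised mouse microglial line labelled wild type, in 9 libraries, 3 in each of 3 groups. The controls carry the label 0 h. The hypoxia group was held at 1% oxygen for 24 h. The supplemented group had the same 24 h at 1% oxygen and, in addition, 100 µM ethanolamine, a building block of membrane phospholipids. DMEM containing 10% serum was the medium of every group. Controls therefore differ from both other groups in time as well as in oxygen, and the effects of time and oxygen cannot be told apart. There was no ethanolamine group at normal oxygen. The labels do not state whether the 3 libraries of a group are separate cultures. The p-values therefore refer to the spread among these libraries only, which may be technical. The treatment tag of the controls names adipogenic differentiation, against their titles and the series design.

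Cytokines that signal through this pathway bind receptor chains that carry JAK kinases on their inner side. The kinases phosphorylate the receptor and then STAT proteins, which pair, enter the nucleus and switch on target genes. SOCS genes are among those targets: their proteins bind the receptor or the kinase, block signalling and mark the complex for degradation through a ubiquitin ligase. Socs3 is best known as the brake on gp130 receptors such as that for IL-6, and on the G-CSF receptor. Cish is a classical STAT5 target, and Stat6 carries the signal of IL-4 and IL-13 from Il4ra. In microglia and macrophages the pathway shapes inflammatory and repair programmes.

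STAT proteins bind palindromes of the form TTCNNNGAA, and the hypoxia-inducible factors bind cores of the form ACGTG or GCGTG. Both were searched on both strands in windows running from 250 bases before to 50 bases after each RefSeq gene start on GRCm38.p6. The sequences of Socs3 and Cish are shown because the results below turn on these feedback genes. RefSeq windows matched 9 of the 10 genes, with 10 windows in all. The palindrome was in the windows of 2 genes, Socs3 and Cish, and in 8.30% of all 32851 windows. Cish held 2 copies, and 0.457% of all windows held 2 or more. These shares are a description, since the genes were picked with their changes known. The longer form with 4 bases between TTC and GAA, favoured by STAT6, was in none of the 10 windows and in 6.95% of all windows. No match of one motif overlapped a match of another. The runs below show these matches in capitals, 5′ to 3′ on the strand of each gene, and the last 2 Cish runs show copies of the ACGTG core, which reads CACGT on the gene's strand.
Socs3, bases -200 to -100 from the start, chr11:117969466-117969566, minus strand: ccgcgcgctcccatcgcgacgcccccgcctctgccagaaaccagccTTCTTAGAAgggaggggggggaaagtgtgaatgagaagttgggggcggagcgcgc
Cish, bases -6 to 24, chr9:107296653-107296682, plus strand: ccagttTTCCTGGAAagTTCTTGGAAatct
Cish, bases -108 to -79, chr9:107296551-107296580, plus strand: ccactcgggCACGTcagttcagggtccctg
Cish, bases -58 to -29, chr9:107296601-107296630, plus strand: gatgctcgtctCACGTccagcgatacgatt
The Socs3 palindrome begins at base -154, inside an intron of a non-coding Socs3 transcript in GENCODE M21. The Cish palindromes begin at bases 1 and 12, and its CACGT matches at -99 and -47, all in the untranslated first exon of a longer Cish transcript. ACGTG or GCGTG was in the windows of 6 of the 9 genes (Cish, Stat3, Stat6, Jak1, Jak2 and Il4ra) and in 43.8% of all windows. ACGTG alone was in 19.6% and GCGTG alone in 32.4%. A match is a description of these letters, not a binding site.

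Levels are FPKM, fragments scaled by gene length and by library total, so that levels of different genes can be set side by side. Read numbers per library are unknown. Library sums of FPKM ran from 324121 to 370322, 11556 to 11924 genes reached 1 FPKM, and the low values put the deepest library at 1.32 times the depth of the shallowest. Of 11 identifiers for microglia and macrophage markers, 8 had a mean of at least 1 FPKM, and the summed level of all 11 was 752.5 to 963 FPKM in controls, 970 to 1123 in hypoxia and 1021 to 1055 with ethanolamine. Most of that sum was Cd68, with group means of 681, 670.5 and 681.8 FPKM. Single markers moved more: in hypoxia Csf1r went from 18.0 to 69.9 FPKM and Fcgr3 from 30.3 to 105. Tyrobp, Ptprc, Cx3cr1 and Tmem119 were also higher in every hypoxic library than in any control. Cd68, Aif1 and P2ry12 overlapped between these groups. Itgam has more than 1 identifier, and each overlapped when read alone. ENSMUSG00000030786 had 20.5 to 22.6 FPKM in controls and, in order, 20.0, 65.2 and 33.6 in the hypoxic libraries. ENSMUSG00000108596 had at most 0.0166 FPKM in controls and, in the same order, 42.2, 0.00245 and 23.8 in hypoxia. An Itgam identifier read alone therefore does not give the level of the gene. The microglial markers Tmem119, P2ry12 and Aif1 were under 1 FPKM. No neuron, astrocyte, oligodendrocyte or endothelial marker reached a mean of 1 FPKM, and of 5 adipocyte markers only Fabp4 did, with 3 listed at 0 in all 9 libraries. Fabp4 had 16.0 to 21.8 FPKM in controls, 24.5 to 27.01 in hypoxia and 19.2 to 20.6 with ethanolamine. The summed level of the 4 endothelial markers was 0.636 to 0.868 FPKM in controls, 2.06 to 2.14 in hypoxia and 1.68 to 1.97 with ethanolamine. The share of FPKM in ribosomal RNA-like and mitochondrial transcripts was 18.1% to 24.3% in controls, 21.9% to 27.3% in hypoxia and 24.2% to 28.0% with ethanolamine. The part of the marker sums in the results was not tested. After rescaling FPKM to exclude the ribosomal RNA-like and mitochondrial transcripts, the calls in hypoxia against control described below held for all tested members except Jak2 (limma adjusted p = 0.0595). In bulk RNA, a change in the number of cells of a kind and a change in RNA per cell cannot be told apart.

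The first comparison, hypoxia against control, asks how the pathway's RNA differs after 24 h of low oxygen. The feedback genes Socs3 and Cish, the kinases Jak1 and Jak2, the factors Stat3 and Stat6 and the receptor chain Il4ra rose, and Stat5a fell. Socs1 and Socs2 stayed under 1 FPKM in all libraries and did not pass the test. Changes are log2 differences of FPKM + 0.5 from limma-trend over the 11802 genes whose mean reached 1 FPKM, two-sided, with Benjamini-Hochberg adjusted p and n = 3 libraries per group. Of the 10 genes, 7 met that mean, and 6 of them were called higher and 1 lower at an adjusted p under 0.05, against 24.7% of all tested genes called higher and 34.7% called lower. The median log2 change was 0.81 over these 7 and -0.09 over all tested genes. Since the genes were picked with earlier results of these data known, these counts and medians are a description. All 7 were above 1 FPKM in every library. Socs1 and Socs2 were below it in every library, and Cish missed the mean through its controls, so the counts describe those 7 and not all 10.

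Socs3 (ENSMUSG00000053113, chr11:117966079-117970047, minus strand), the gp130 brake, was the member with the largest change among the 7. Its level was 8.89, 8.51 and 7.97 FPKM in the control libraries, 25.7, 25.1 and 24.6 in hypoxia, and 21.8, 20.4 and 18.5 with ethanolamine. The 3 groups did not overlap, with hypoxia highest and control lowest. Means were 8.46 ± 0.461, 25.1 ± 0.560 and 20.2 ± 1.67 FPKM (SD, n = 3). The log2 change from control to hypoxia was 1.52 (SE 0.07, 95% interval 1.35 to 1.68, limma adjusted p = 2.98e-07), and the ratio of mean FPKM was 2.97.

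Cish (ENSMUSG00000032578, chr9:107296026-107302784, plus strand) encodes the inhibitor named for its induction by cytokines. It was a low-level gene with 0.210, 0.427 and 0.331 FPKM in controls, 1.25, 1.70 and 1.56 in hypoxia, and 0.940, 1.13 and 1.09 with ethanolamine. Every hypoxic library was above every supplemented one, and every supplemented one above every control. Its mean over all libraries was 0.960 FPKM, just under the limit for testing, so its statistics come from the fit without that limit, over 27339 genes. There Cish rose by 1.29 on the log2 scale (SE 0.15, limma adjusted p = 0.000344), in a comparison in which 13.1% of genes were called higher. It was called in all 13 settings run without the limit, with changes from 0.92 to 1.95. The ratio of mean FPKM was 4.66. Among the members, Cish was the nearest below the limit and Stat5a the nearest above it. The genes Gm17040 and Gm17041, which overlap Cish on the other strand, were listed at 0 in all libraries.

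Socs1 (ENSMUSG00000038037, chr16:10782240-10785536, minus strand), the brake on interferon signalling, had 0.284, 0.313 and 0.336 FPKM in controls, 0.278, 0.486 and 0.807 in hypoxia, and 0.423, 0.290 and 0.187 with ethanolamine. All 3 groups overlapped and the hypoxic libraries spread most. Without the limit, its log2 change in hypoxia was 0.30 (limma adjusted p = 0.326), which became 0.11 without hypoxia 3 and 0.49 without hypoxia 1 (limma adjusted p = 0.677 and 0.0879). Socs2 (ENSMUSG00000020027, chr10:95385362-95417180, minus strand), which restrains growth hormone signalling, had 0.493, 0.668 and 0.584 FPKM in controls, 0.555, 0.618 and 0.573 in hypoxia and 0.622, 0.519 and 0.712 with ethanolamine. Its groups overlapped and its log2 change in hypoxia was 0.00 (limma adjusted p = 1). At these levels a moderate change in either gene may not be detectable.

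**Figure D1:**
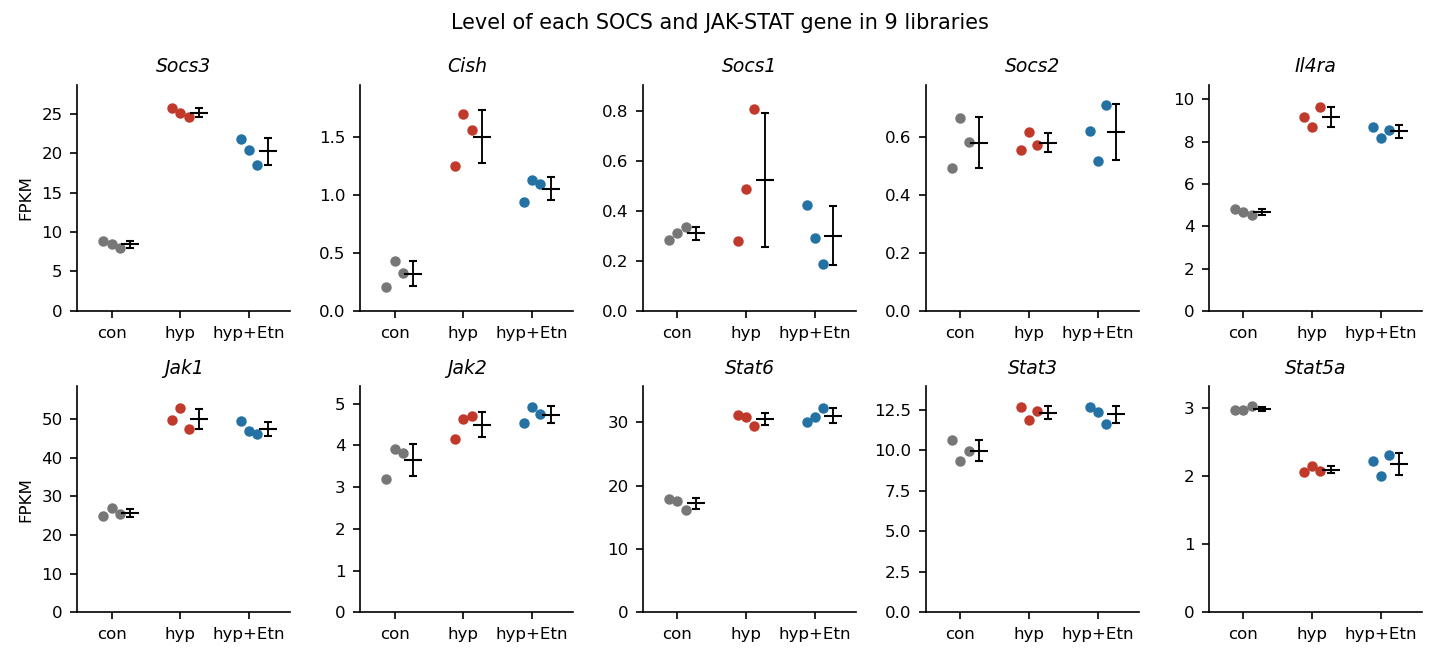
FPKM of the 10 genes in each library of control (con), hypoxia (hyp) and hypoxia with ethanolamine (hyp+Etn), with points for libraries and a bar for the mean ± SD of 3. Each panel has its own axis from 0. Socs3 and Cish separate all 3 groups, Jak1, Stat6 and Il4ra separate control from both other groups, Stat5a is the gene that is lower at low oxygen, and Socs1 and Socs2 overlap.

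Among the kinases, Jak1 (ENSMUSG00000028530, chr4:101152367-101265282, minus strand) serves most cytokine receptor families. Its level was 24.9, 26.9 and 25.4 FPKM in controls, 49.9, 52.8 and 47.5 in hypoxia and 49.5, 46.8 and 46.1 with ethanolamine. Controls lay far below the other groups, which overlapped each other. Jak1 rose by 0.95 on the log2 scale in hypoxia (SE 0.06, limma adjusted p = 1.52e-06), from 25.7 ± 1.02 to 50.1 ± 2.63 FPKM (SD, n = 3). It overlaps Raver2, Gm24468 and Gm12785, each under 0.5 FPKM in every library.

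Jak2 (ENSMUSG00000024789, chr19:29251828-29313080, plus strand), the kinase of hormone-like cytokines and the GM-CSF receptor, changed little. It had 3.20, 3.92 and 3.82 FPKM in controls, 4.15, 4.62 and 4.70 in hypoxia, and 4.53, 4.92 and 4.76 with ethanolamine. The highest control was below the lowest hypoxic library, but by less than the spread within either group. The log2 change of 0.27 (SE 0.09, limma adjusted p = 0.0273) was called in 11 of 17 other settings and had adjusted p from 0.00629 to 0.0854 over them. It lost the call without control 1 (limma adjusted p = 0.0848), without hypoxia 2 (0.0740) and without hypoxia 3 (0.0854).

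Stat6 (ENSMUSG00000002147, chr10:127642986-127660957, plus strand) carries IL-4 and IL-13 signals. It had 17.9, 17.5 and 16.2 FPKM in controls, 31.2, 30.8 and 29.4 in hypoxia, and 29.98, 30.8 and 32.3 with ethanolamine. Controls stood apart below, and the other groups overlapped. It rose by 0.81 (SE 0.06, limma adjusted p = 3.77e-06) on the log2 scale, from 17.2 ± 0.889 to 30.5 ± 0.926 FPKM (SD, n = 3). Nab2, a repressor gene that overlaps Stat6 on the other strand, had group means of 4.01, 5.43 and 6.35 FPKM in control, hypoxia and supplemented cells. Whether the counting used strand is not given in the sources used here, so reads from overlapping genes may be mixed.

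Stat3 (ENSMUSG00000004040, chr11:100885098-100939540, minus strand), the factor of gp130 and IL-10 signals, had 10.6, 9.36 and 9.97 FPKM in controls, 12.7, 11.9 and 12.4 in hypoxia and 12.7, 12.4 and 11.6 with ethanolamine. Controls were below all other libraries. The log2 change was 0.29 (SE 0.07, limma adjusted p = 0.00427). Its neighbour Stat5a (ENSMUSG00000004043, chr11:100859351-100885169, plus strand), which overlaps the end of Stat3 on the other strand, moved the other way. Stat5a had 2.97, 2.98 and 3.03 FPKM in controls, 2.06, 2.16 and 2.08 in hypoxia and 2.23, 2.00 and 2.32 with ethanolamine. Controls were above all other libraries, and Stat5a fell by 0.43 on the log2 scale (SE 0.08, limma adjusted p = 0.00154). Stat5b, its near-identical paralog, could share reads with it and was at 7.28 ± 0.20 FPKM in controls and 6.51 ± 0.26 in hypoxia (SD, n = 3), a log2 change of -0.15 (limma adjusted p = 0.0542).

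Il4ra (ENSMUSG00000030748, chr7:125552120-125579474, plus strand) encodes the chain shared by the IL-4 and IL-13 receptors. It had 4.82, 4.69 and 4.51 FPKM in controls, 9.18, 8.69 and 9.65 in hypoxia, and 8.71, 8.16 and 8.57 with ethanolamine. Controls were lowest and the other groups overlapped by a narrow margin. Il4ra rose by 0.90 on the log2 scale (SE 0.06, limma adjusted p = 3.10e-06). Within libraries, the log2 ratio of Il4ra to Stat6, each with 0.5 FPKM added, was -1.77 in controls, -1.68 in hypoxia and -1.81 with ethanolamine. The groups of this ratio overlapped in all 3 comparisons. Without the added 0.5 the hypoxic and control ratios did not overlap, at -1.73 and -1.88.

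**Figure D2:**
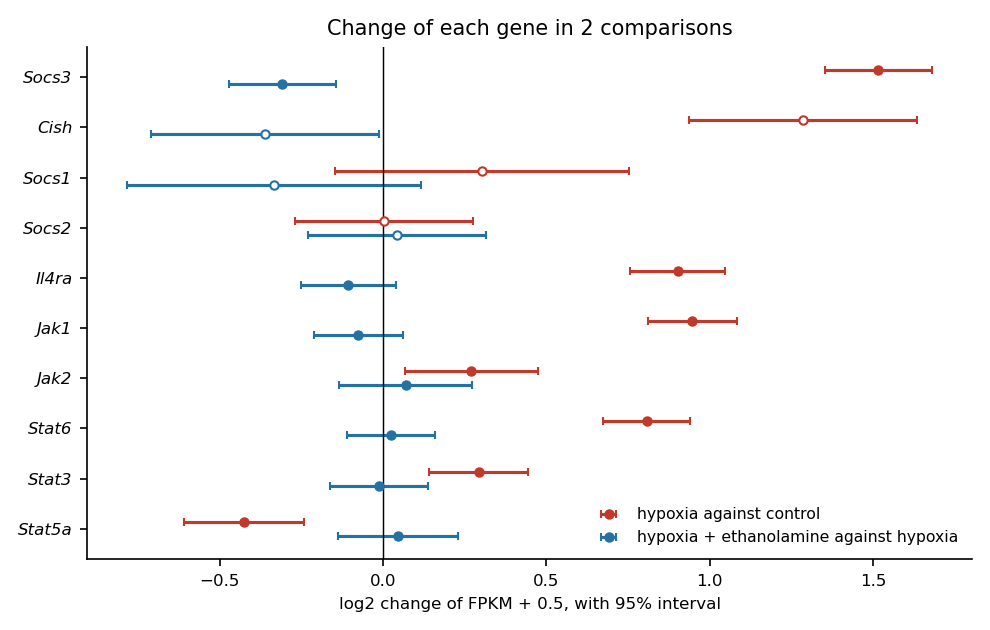
Log2 change of each gene with its 95% interval from limma, for hypoxia against control (red) and for ethanolamine under hypoxia against hypoxia (blue). Open points are the 3 genes under a mean of 1 FPKM, from the fit without that limit. Red points run from -0.43 for Stat5a to 1.52 for Socs3, and all blue points lie between -0.36 and 0.07.

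Levels of the 10 genes kept much the same order. In controls Jak1 was highest, followed by Stat6, Stat3, Socs3, Il4ra, Jak2, Stat5a, Socs2, Cish and Socs1, and the only neighbours whose libraries overlapped were Cish and Socs1. In both low-oxygen groups Socs3 stood above Stat3, and Cish above Socs2. The only overlapping neighbours there were Socs2 and Socs1 in hypoxia.

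The summed level of the 8 SOCS genes was 27.5 ± 1.66 FPKM in controls, 46.8 ± 1.67 in hypoxia and 38.4 ± 2.05 with ethanolamine (SD, n = 3). Socs3 made up 30.9%, 53.7% and 52.6% of these sums, and Cish 1.17%, 3.21% and 2.76%. Socs5 held 20.5%, 11.4% and 10.9%, and Socs4 19.9%, 10.0% and 11.1%, so the family was spread over Socs3, Socs4, Socs5 and Socs7 in controls and led by Socs3 at low oxygen. Among the JAK genes, Jak1 made up 75.5% of a sum of 34.1 ± 1.47 FPKM in controls, 83.0% of 60.3 ± 2.61 in hypoxia and 81.6% of 58.2 ± 1.83 with ethanolamine. Over Stat2, Stat3, Stat5a, Stat5b and Stat6 together, Stat6 made up 44.2%, 57.9% and 57.8% of sums of 38.9 ± 1.26, 52.6 ± 1.28 and 53.6 ± 0.913 FPKM. Stat3 held 25.7%, 23.4% and 22.8% in the group means, and Stat5a 7.70%, 3.99% and 4.07%. Stat4 was listed at 0 in all libraries. These shares are a description with no test.

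**Figure D3:**
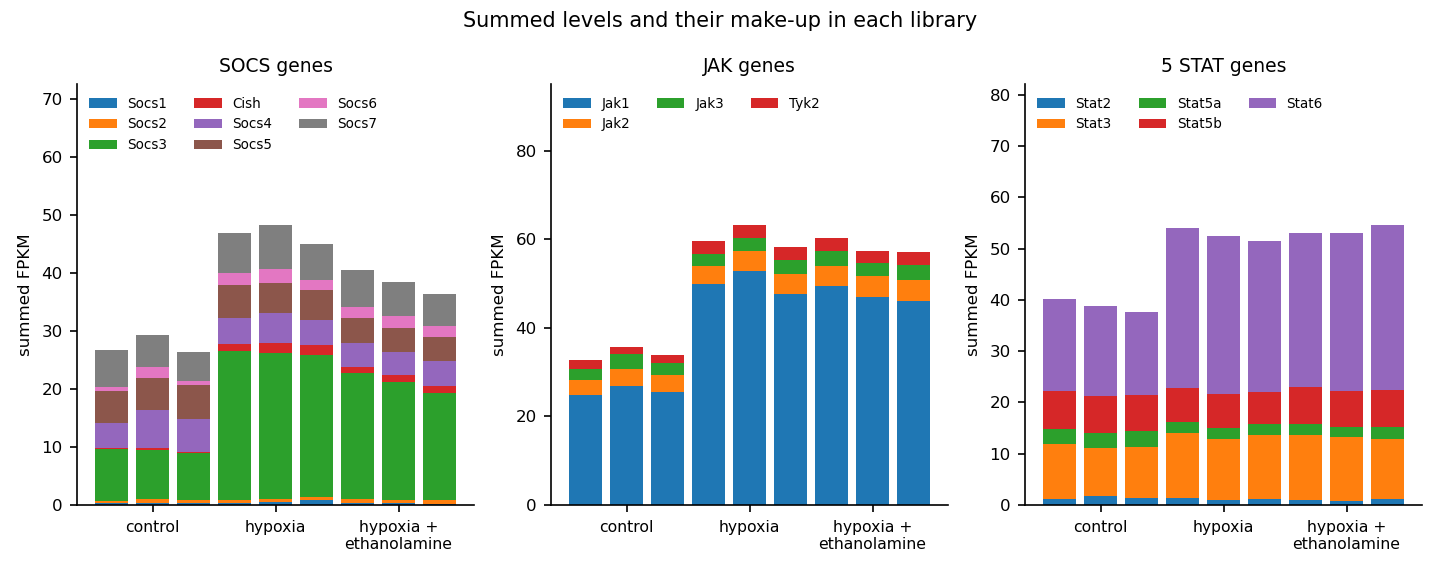
Summed FPKM of the SOCS genes, the JAK genes and 5 STAT genes in each of the 9 libraries, stacked by gene, in the order control, hypoxia, and hypoxia with ethanolamine. The taller bars at low oxygen are mostly Socs3, Jak1 and Stat6, which reach 53.7%, 83.0% and 57.9% of their sums in hypoxia.

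Ratios between members within a library were taken with 0.5 FPKM added to each level, which leaves some dependence on scaling for the low genes Cish and Socs1. The log2 ratio of the brake Socs3 to the factor Stat3 was -0.23 in controls, 1.00 in hypoxia and 0.70 with ethanolamine, with no overlap between any pair of groups. The ratio of Cish to Stat5a was -2.09, -0.38 and -0.79, also with no overlap. Without the added 0.5 it was -3.27, -0.49 and -1.05, so its difference between hypoxia and control went from 1.71 to 2.78. Socs1 to Socs3 was -3.46, -4.68 and -4.70, where hypoxia and ethanolamine overlapped. Of the 12 differences (4 ratios in 3 comparisons), each with no overlap has a two-sided exact permutation p of 0.10, the smallest that 3 against 3 libraries can give. Without the added 0.5, the hypoxic and control values of Socs1 to Socs3 overlapped, at -5.72 and -4.77.

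The second comparison, hypoxia with ethanolamine against hypoxia alone, asks what the supplement changes under low oxygen. None of the 7 tested members was called by limma at an adjusted p under 0.05, against 0.119% of all tested genes called higher and 0.449% called lower. At an unadjusted limma p under 0.05 there was 1 of 7, Socs3, where 14.7% of all tested genes had such a p, a share near that of the members. Socs3 was lower in all 3 supplemented libraries than in any hypoxic one, with a log2 difference of -0.31 (SE 0.07, 95% interval -0.47 to -0.15). The limma p was 0.00213 and the limma adjusted p 0.111. Over 18 other settings its limma adjusted p ran from 0.10 to 0.269. It was the 1 of the 7 tested members whose supplemented libraries all lay below the hypoxic ones, where 11.2% of tested genes had that separation. Cish, outside the tested set, was separated in the same way, with a log2 difference of -0.36 and a limma adjusted p of 0.430 in the fit without the limit.

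For the other tested members the supplement's difference was smaller than for Socs3, and the 95% intervals show what could have been missed. The log2 differences were -0.11 for Il4ra (limma adjusted p = 0.486), -0.08 for Jak1 (0.609), -0.01 for Stat3 (0.949), 0.02 for Stat6 (0.887), 0.04 for Stat5a (0.842) and 0.07 for Jak2 (0.764). The 95% interval ran from -0.21 to 0.06 for Jak1 and from -0.16 to 0.14 for Stat3. It was -0.25 to 0.04 for Il4ra, -0.11 to 0.16 for Stat6, -0.14 to 0.23 for Stat5a and -0.13 to 0.27 for Jak2. In the fit without the limit, Socs1 differed by -0.33 (limma adjusted p = 0.612) and Socs2 by 0.04 (0.946). Their 95% intervals were wider, from -0.78 to 0.12 for Socs1 and from -0.23 to 0.32 for Socs2. These p-values do not show that the levels were the same.

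The third comparison sets the supplemented cells against control. It shares its supplemented libraries with the second comparison and its controls with the first, so the 3 are not independent. Of the 7 tested members, 6 were called higher and 1 lower, against 24.1% and 34.4% of all tested genes. These counts too are a description, given how the genes were picked. The log2 change was 1.21 for Socs3 (limma adjusted p = 1.26e-06), 0.87 for Jak1, 0.83 for Stat6, 0.80 for Il4ra (8.02e-06), 0.34 for Jak2 (0.00973), 0.28 for Stat3 (0.00573) and -0.38 for Stat5a (0.00311). In hypoxia alone against control, the same genes had 1.52, 0.95, 0.81, 0.90, 0.27, 0.29 and -0.43 in this order. Jak2 kept its call in all 17 other settings here. Cish was 0.92 higher than control in the fit without the limit (limma adjusted p = 0.00233).

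The wider pathway was followed in 109 further genes, of which 58 met the mean of 1 FPKM. In hypoxia 22 (37.9%) were called higher and 16 (27.6%) lower, against 24.7% and 34.7% of all tested genes, with a median log2 change of 0.09. The same shares of all tested genes are the background for each list below, and nothing particular to a list is read from its counts. With ethanolamine against hypoxia, 0 were called higher and 2 lower, against 0.119% and 0.449% of all tested genes. With ethanolamine against control 20 were called higher and 17 lower, against 24.1% and 34.4%. Some of the 58 met the mean of 1 FPKM only through the groups where they were high. Il10ra was under 1 FPKM in every control, and Usp18 in every hypoxic and supplemented library. The counts and calls of the lists include such genes.

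Among the 58 tested genes the largest called rise in hypoxia, on the log2 scale of FPKM + 0.5, was that of a cytokine gene, Csf3. Of 25 listed ligands, 6 were tested, and 4 of these rose in hypoxia and 0 fell. Csf3, encoding G-CSF, had 1.93, 3.03 and 1.79 FPKM in controls, 24.9, 22.8 and 22.7 in hypoxia and 13.6, 12.7 and 14.7 with ethanolamine. The 3 groups did not overlap. Csf3 rose by 3.15 on the log2 scale in hypoxia (SE 0.15, limma adjusted p = 2.92e-07) and differed by -0.76 with ethanolamine (limma adjusted p = 0.0762). That difference was called in 3 of 18 other settings: with 1 FPKM added (limma adjusted p = 0.0497), with only the groups compared (0.0440) and without control 2 (0.0304). Its receptor gene Csf3r was listed at 0 in all libraries. Csf2, encoding GM-CSF, rose by 2.03 (limma adjusted p = 3.09e-06), from 1.24 ± 0.068 to 6.65 ± 1.0 FPKM, and differed by -0.59 with ethanolamine (adjusted p = 0.121).

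Oncostatin M, a gp130 cytokine encoded by Osm, had 8.97, 8.57 and 8.597 FPKM in controls, 15.0, 13.7 and 14.1 in hypoxia, and 11.4, 10.7 and 11.1 with ethanolamine. Its groups did not overlap either. Osm rose by 0.68 in hypoxia (limma adjusted p = 1.06e-05) and fell by 0.35 with ethanolamine (adjusted p = 0.0436), a call that held in 4 of 18 other settings with adjusted p from 0.0370 to 0.155. It was lost on leaving out any of the 9 libraries, with limma adjusted p from 0.0608 to 0.155. Il6, the prototype gp130 ligand, rose by 0.69 (limma adjusted p = 0.0158; 0.0543 without control 1, 0.0589 without control 3 and 0.0580 without hypoxia 2), from 2.42 ± 0.80 to 4.13 ± 0.72 FPKM, and stood at 2.30 ± 0.46 FPKM with ethanolamine, a difference of -0.73 (adjusted p = 0.154). The tested ligand Il15 went the other way with ethanolamine. Its group means were 1.19, 1.75 and 2.67 FPKM, and every supplemented library was above every hypoxic one. That difference was 0.48 (limma adjusted p = 0.334), and the rise against control was 0.89 (adjusted p = 0.00528).

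Of 8 gp130-family receptor genes, 2 were tested. Il6ra, the IL-6 binding chain, fell by 0.68 (limma adjusted p = 5.03e-05), from 8.26 to 4.98 FPKM, and Il6st, gp130 itself, was at 9.24, 9.51 and 9.69 FPKM in the 3 groups. Lifr and Osmr, the partner chains for leukaemia inhibitory factor and oncostatin M, were listed at 0 in all libraries.

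Receptor genes for interferons and the IL-10 family were tested in 6 of 8 cases, and 5 rose and 1 fell. Il10ra, the IL-10 binding chain, had 0.813, 0.893 and 0.736 FPKM in controls and 4.96, 4.56 and 4.59 in hypoxia. The rise of 1.99 (limma adjusted p = 1.64e-07) left no overlap between these groups. Ifngr2 rose by 0.60, from 19.6 to 30.1 FPKM, and Ifnar1 by 0.36, while Ifnar2 fell by 0.23 (limma adjusted p = 0.0328). Ifngr1 rose by 0.38 (limma adjusted p = 0.0394), a call held in 9 of 17 other settings. It was lost without control 2 (limma adjusted p = 0.0813), control 3 (0.133), hypoxia 1 (0.135), hypoxia 2 (0.0722), or supplemented library 1 (0.0534) or 2 (0.0532).

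Of 21 genes for common gamma, common beta and other type I receptors, 9 were tested, 4 rose and 4 fell. The partner of Il4ra in the IL-13 receptor, Il13ra1, had 7.72, 9.51 and 8.27 FPKM in controls, 42.4, 43.2 and 38.0 in hypoxia and 37.3, 38.8 and 37.6 with ethanolamine. Controls were far below the rest. Il13ra1 rose by 2.21 (SE 0.08, limma adjusted p = 8.92e-08), more than Il4ra. Il2rg, the common gamma chain and the other partner of Il4ra, fell by 0.45 (limma adjusted p = 0.000241), from 60.7 ± 4.4 to 44.2 ± 1.9 FPKM. In controls Il2rg exceeded Il13ra1, and in hypoxia their levels were 44.2 and 41.2 FPKM. Il7r, the IL-7 receptor chain, rose by 0.66 and Il12rb2, an IL-12 receptor chain, fell by 0.55.

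**Figure D4:**
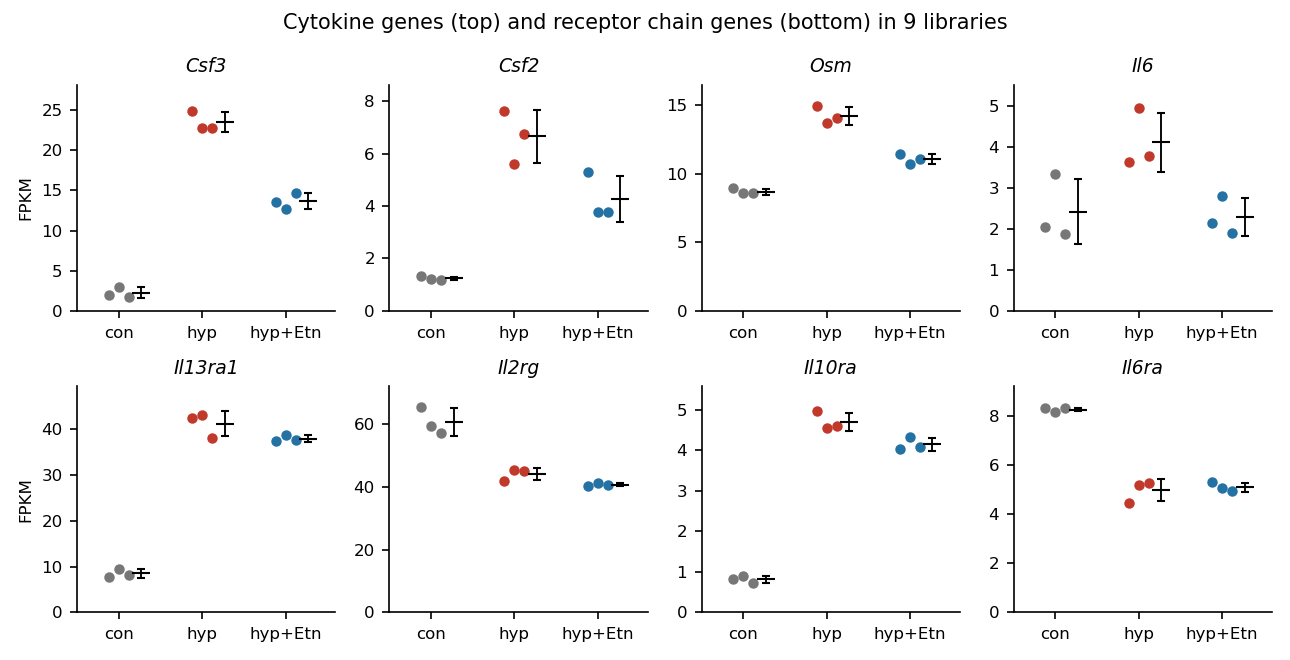
FPKM of 4 cytokine genes (top) and 4 receptor chain genes (bottom) in each library, with the mean ± SD of 3 beside the points. Csf3 goes from about 2.25 to 23.5 FPKM in hypoxia and to 13.7 with ethanolamine, and Il13ra1 goes from 8.50 to 41.2 while Il2rg goes from 60.7 to 44.2.

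Of 4 further SOCS genes, 2 were called higher in hypoxia and 0 lower. Socs6 rose by 0.74 (limma adjusted p = 0.0321) and Socs7 by 0.30 (adjusted p = 0.0358), calls held in 11 of 17 and 10 of 18 other settings. Socs6 lost it without control 1 (limma adjusted p = 0.107), control 3 (0.111), hypoxia 1 (0.0677) or hypoxia 2 (0.0953). Socs7 lost it without control 2 (limma adjusted p = 0.0777), control 3 (0.128), hypoxia 1 (0.0869), hypoxia 2 (0.116) or supplemented library 2 (0.0503). Socs5, related to Socs4, was 5.61, 5.34 and 4.17 FPKM in the 3 groups, with a difference of -0.32 on adding ethanolamine (limma adjusted p = 0.0809) and a fall of 0.39 against control (adjusted p = 0.000909). Of 5 further JAK and STAT genes, 4 were tested, 1 rose and 0 fell. Tyk2, the kinase of type I interferon and IL-12 receptors, rose by 0.53 (limma adjusted p = 0.00111), and Jak3, Stat2 and Stat5b were not called.

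Of 12 other negative regulators, all tested, 3 rose and 5 fell. Usp18, an interferon-induced inhibitor of type I interferon signalling, fell by 2.08 (limma adjusted p = 9.60e-05), from 3.78 to 0.528 FPKM. Pias2, a SUMO ligase that restrains STATs, fell by 0.56 and Ptpn11, a phosphatase, by 0.36. Ptprc, the phosphatase CD45 and a leukocyte marker, rose by 0.53 (limma adjusted p = 0.00022). None of the 4 genes of the ligase that SOCS proteins recruit was called in hypoxia by limma, with 1 of 4, Rnf7, at an unadjusted limma p under 0.05, where 63.3% of all tested genes had such a p. Rnf7 was at 41.0 FPKM in controls and 48.5 in hypoxia (log2 change 0.24, limma adjusted p = 0.0502, and from 0.00876 to 0.160 over 18 other settings), and Elob at 38.0 and 45.5 (0.26, limma adjusted p = 0.251). Rnf7 was called in 5 and Elob in 2 of 18 other settings. Rnf7 was called without control 2 (limma adjusted p = 0.00876), hypoxia 2 (0.0462) or supplemented library 2 (0.0480), and Elob without control 3 (0.0452) or hypoxia 2 (0.0495).

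Of 22 known STAT target genes, 11 were tested, 3 rose and 5 fell in hypoxia. Cxcl10, a chemokine gene induced by interferon, had 10.4, 11.2 and 11.97 FPKM in controls, 0.905, 1.34 and 1.13 in hypoxia and 0.366, 0.431 and 0.412 with ethanolamine. The groups did not overlap, and Cxcl10 fell by 2.85 in hypoxia (limma adjusted p = 1.40e-07). It fell by a further 0.84 with ethanolamine (limma adjusted p = 0.0271), a call held in 7 of 17 other settings with limma adjusted p from 0.0174 to 0.126. The call was lost without control 2 (limma adjusted p = 0.0566), control 3 (0.0695), hypoxia 2 (0.105), hypoxia 3 (0.0890), or supplemented library 1 (0.0688), 2 (0.0887) or 3 (0.0945). Mcl1, a survival gene, rose by 1.03 (limma adjusted p = 1.18e-06), from 113 to 230 FPKM, and Junb by 1.02 (adjusted p = 1.12e-05), from 34.6 to 70.8 FPKM. Bcl6, a repressor, fell by 0.88 (limma adjusted p = 7.70e-05). The remaining 3 tested targets were not called, and 27.3% higher and 45.5% lower stand beside 24.7% and 34.7% of all tested genes.

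Socs3 was the tested member whose change reached 1 on the log2 scale, and the genes most like it were found by the root mean square difference in log2 level over the 9 libraries, after centring each gene on its own mean. The 3 nearest were Fhad1 (0.0600), Rhoq (0.0752) and Srgap3 (0.0755), with mean FPKM of 0.663, 2.83 and 2.32 for Fhad1, 7.06, 20.1 and 16.9 for Rhoq, and 5.82, 18.5 and 14.9 for Srgap3 in control, hypoxia and supplemented cells. Among the members themselves, the nearest pairs were Stat6 and Il4ra (0.0837), Jak1 and Il4ra (0.0866) and Jak1 and Stat6 (0.0908). This is a description and has no test.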

How the data were processed

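The values the authors deposited are FPKM for each gene in each library, fragments scaled by gene length and library total. Per the submitters' processing notes, the build was GRCm38 (mm10). Which aligner and quantifier were used, and whether strand was, is not given in the sources used here. Because FPKM divides by a library's total, a transcript class that takes more of it lowers all other values. Groups came from the sample titles. Of 27339 genes above 0 in at least 1 library, the 11802 averaging 1 FPKM or more entered a limma-trend fit of log2(FPKM + 0.5) (limma 3.58.1, R 4.3.3), with group means over all 9 libraries, two-sided and Benjamini-Hochberg adjusted over all tested genes at 0.05. This scale understates the change of low genes. Socs1, Socs2 and Cish, under that mean, were read from the same fit without the limit. Ratios were compared by exact permutation of libraries. Positions and overlaps came from GENCODE M21, which held 55154 of 55335 identifiers, and promoter windows from RefSeq. Figures used Python 3.11.15 and matplotlib 3.10.9.

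The members and gene lists were chosen with earlier results of these data known. From each list the text names up to 4 called genes with the largest change in hypoxia, every gene called with ethanolamine against hypoxia, and the 2 most abundant genes where none passed. Socs4, Socs5, Jak3, Stat2, Stat5b, Il6st, Ifnar2, Il15, Epo, Nab2 and the genes listed at 0 or under 1 FPKM were named after their values were seen. An item of the lists is not reported here. The code was tested on simulated data. Alternatives were other pseudocounts and limits on low values, 2 rescalings, a replicate block, fits without the group outside the comparison or without the mean-variance trend, and each library left out; the settings for the genes under the limit were added after seeing the data.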

Additional observations from a re-analysis of the deposited data

How the results depend on the processing

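Over 18 other settings, the number of members called was 5 to 7 for hypoxia against control, 0 throughout for ethanolamine against hypoxia and 5 to 8 for ethanolamine against control. The lowest counts came with a limit of 5 FPKM, which leaves fewer members tested. Without a limit Cish gained and Jak2 lost its call in hypoxia. Ratios that moved did so without the added 0.5 FPKM: Cish to Stat5a became 2.78 in hypoxia against control, -0.56 for ethanolamine against hypoxia and 2.22 for ethanolamine against control, and Socs1 to Socs3 became -0.43 and -1.38 in the last 2 comparisons. The added value weighs more on genes near 0.

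Whether replicate numbers pair the libraries cannot be settled here, since values centred on a mean of 3 libraries are not independent. Same-number correlations of these values ran from -0.07 to 0.11 between control and hypoxia and from -0.12 to -0.09 between hypoxia and ethanolamine. They ran from 0.03 to 0.06 between control and ethanolamine, where 6 of 6 libraries were closest to their own number. With the replicate number as a block, 7, 0 and 7 members were called. Genes called with ethanolamine against hypoxia numbered 0 in place of 67 with that block, 6 with only the groups compared, 38 after rescaling to exclude mitochondrial and ribosomal RNA-like transcripts, 40 with no limit, and 0 (without hypoxia 3) to 38 (without control 1) on leaving out 1 library. The cause was not tested.

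Directions turned for changes that were not called. With that rescaling, ethanolamine against hypoxia was -0.0081 for Stat6 and -0.026 for Ifngr2. With median-of-ratios scaling, ethanolamine against control was 0.034 for Il6 and 0.0046 for Socs1. On leaving out 1 library, ethanolamine against hypoxia ran from -0.038 to 0.022 for Stat3, -0.0046 to 0.048 for Stat6, -0.017 to 0.11 for Socs2, -0.037 to 0.073 for Il6ra, -0.013 to 0.037 for Ifngr2, -0.051 to 0.19 for Ifngr1, -0.11 to 0.028 for Ifnar1, -0.12 to 0.041 for Il12rb2, -0.036 to 0.37 for Usp18, -0.00018 to 0.084 for Pias2, -0.20 to 0.076 for Elob, -0.086 to 0.081 for Junb and -0.012 to 0.082 for Bcl6. Ethanolamine against control ran from -0.17 to 0.17 for Il6, -0.14 to 0.075 for Socs1 and -0.014 to 0.11 for Socs2, and hypoxia against control from -0.057 to 0.061 for Socs2.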

Other observations

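Several pathway genes that did not reach a mean of 1 FPKM, picked after their values were seen and not tested, still had group patterns. Il13ra2, the decoy receptor for IL-13, had 0.118, 0.218 and 0.283 FPKM in controls, 1.51, 1.32 and 0.548 in hypoxia, and 0.162, 0.265 and 0.0368 with ethanolamine. All 3 hypoxic libraries were above every other library. Arg1, arginase and a STAT6 target of alternatively activated macrophages, was listed at 0 in all 3 controls and had 1.70, 1.13 and 1.62 FPKM in hypoxia and 1.39, 0.888 and 2.21 with ethanolamine. Of the other listed markers of that state, Mrc1 was higher in every hypoxic and supplemented library than in any control, at 0 to 0.00883 FPKM in controls, 0.189 to 0.234 in hypoxia and 0.0561 to 0.187 with ethanolamine, levels at which few reads may lie behind a value. Chil3 and Retnla were listed at 0 in all libraries. Tgm2, Irf4, Pparg and Il4i1, also on the STAT target list, were under 1 FPKM in every library, and their groups overlapped in every comparison. Il4 was at 0.399, 0.574 and 0.722 FPKM in the group means, and Il13 was listed at 0. Lif, a gp130 ligand, had 0.444, 0.377 and 0.693 FPKM in controls, 1.43, 1.21 and 1.30 in hypoxia and 1.04, 0.897 and 1.14 with ethanolamine, with no overlap between groups.

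Epo, erythropoietin, was uneven among libraries of a group. It was listed at 0 in 6 of 9 libraries, including all controls, and had 3.00 and 7.47 FPKM in hypoxia 2 and 3 and 8.28 in supplemented library 3. Its mean passed the limit for testing, and its change in hypoxia of 2.27 on the log2 scale was not called (SE 1.23, limma adjusted p = 0.142).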
